A study of Mus musculus with 20 samples.

Results

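The genes described here are 10 genes whose products slow or stop the cell cycle, out of 21078 genes in a table of sense-strand read counts from mouse aorta. They were chosen by symbol: the CDK inhibitors Cdkn1a, Cdkn1b, Cdkn1c and Cdkn2c, the antiproliferative genes Btg1, Btg2 and Btg3, the polo-like kinases Plk2 and Plk3, and Gadd45a. All 10 were present once in the table, and all 10 passed the filter for testing, which kept the 13124 genes whose count averaged 5 or more across the 20 mice.

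The mice were adult, wildtype, male C57BL/6 animals 10 to 12 weeks old that received 1 whole-body exposure. Of the 20 mice, 10 were assigned to high energy protons and 10 to gamma rays from a cesium source. Within each radiation type 1 mouse was given each dose of 0, 5, 10, 25, 50, 75, 100, 125, 150 and 200 cGy, so each type had 1 unirradiated mouse and no dose had a second mouse of the same type. Aortas were taken 4 hours later, and polyA RNA of the whole vessel was sequenced, so the counts pool all cell types of the wall, and fewer cells of a type cannot be told apart from less RNA per cell. The comparisons asked which of these genes followed the dose and whether protons and gamma rays differed.

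Progression through the cell cycle is driven by cyclin-dependent kinases, and cells with damaged DNA can halt before DNA synthesis or before mitosis. The CIP/KIP inhibitors p21 (Cdkn1a), p27 (Cdkn1b) and p57 (Cdkn1c) bind cyclin-CDK complexes, whereas the INK4 inhibitor p18 (Cdkn2c) binds CDK4 and CDK6. BTG proteins recruit the CCR4-NOT deadenylase to messenger RNAs, Gadd45a binds PCNA and the mitotic kinase Cdk1, and Plk2 and Plk3 are stress-inducible kinases. In many cell types Cdkn1a, Btg2, Plk2, Plk3 and Gadd45a are known targets of the DNA damage-activated transcription factor p53, and p27 is known to be set largely by protein degradation.

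Total counts lay between 6051657 and 6058006 per mouse. The smooth muscle markers Myh11, Acta2, Tagln, Cnn1, Smtn and Lmod1 summed to 165116 to 332585 counts in every mouse, as in aortic wall. The proton mouse at 75 cGy stood apart, with 13469 counts of 4 heart muscle markers against at most 247 in any other mouse and 14878 counts of 6 brown fat markers against a median of 1500. The gamma mouse at 100 cGy had the next highest brown fat sum, 5824. Of 5 fibroblast markers 2, and of 6 smooth muscle markers 1, had a common dose slope called downward. In neither list was one called downward among mice given at most 125 cGy or without the gamma mouse at 200 cGy, and no fibroblast marker was without the proton mouse at 200 cGy. Over all genes 24, 334 and 532 were called downward in these settings, against 757 with all mice. The part of these cells in the results below was not tested. In the 4 mice given 150 or 200 cGy, the deviation of a gene's count from its mean fell with the GC content of its transcript (r from -0.40 to -0.35 across 9702 genes, which are not independent), against -0.02 to 0.28 in the other 16 mice. Results below are given also without the first 2 of these mice or with a GC correction where that changed a call.

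Promoter sequence is shown for Cdkn1a and Btg2 because these were the members whose counts followed the dose. Windows of 250 bases before to 50 after each start were taken from RefSeq (GRCm38.p6) and found in the NCBIM37 (mm9) genome by exact match: 12 windows of 9 members, with none for Cdkn1c. They were searched on both strands for the p53 response element by name, the cAMP response element TGACGTCA and the CArG box by name, which were chosen after these windows had been read. In the Cdkn1a window at chr17:29227801-29227923 (plus strand, the bases just before the start), capitals mark p53 half-sites and an adjoining half-site with 1 mismatch. In the Btg2 window at chr1:135975831-135975958 (minus strand), capitals mark the cAMP response element, 166 to 159 bases before the start.
Cdkn1a: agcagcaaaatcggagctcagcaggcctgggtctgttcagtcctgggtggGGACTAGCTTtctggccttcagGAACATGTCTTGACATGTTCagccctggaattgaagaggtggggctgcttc
Btg2: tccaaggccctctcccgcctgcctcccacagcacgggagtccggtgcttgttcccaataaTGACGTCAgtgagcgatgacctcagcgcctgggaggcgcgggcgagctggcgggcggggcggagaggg

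Of 32851 RefSeq windows, 0.0731% held 2 exact p53 half-sites at most 13 bases apart, as the Cdkn1a window did, and 0.0548% held adjoining half-sites with at most 1 mismatch, which that window also held. A single half-site was found in 8.36% of windows, among them that of Gadd45a, where GGGCTAGCCC lies 40 to 31 bases before the start. The cAMP response element was found in 1.79% of windows, including those of Btg2 and Plk2. The CArG box was found in 1.63% of windows and in none of the members' windows. A second Cdkn1a window, around a start at position 29230714 of chromosome 17, held none of these motifs. No p53 letters were found in the Btg2 window either, which says only that these letters are absent from these stretches.

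Cdkn1a (ENSMUSG00000023067, chr17:29227924-29237667, NCBIM37), which encodes p21, rose with dose after both radiation types and had the largest slope of the 10 genes. In proton mice its counts were 345, 563, 546, 1027, 1039, 1380, 1639, 1809, 2977 and 2777 from 0 to 200 cGy. In gamma mice they were 366, 262, 517, 845, 1035, 1853, 2164, 2373, 2188 and 2937. Both unirradiated mice were low and both mice at 200 cGy were high, and from 25 cGy upward every mouse exceeded all 6 mice given 0, 5 or 10 cGy. The 8 mice given 100 cGy or more ranged from 1639 to 2977, without overlap with the 6 low-dose mice at 262 to 563.

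The ratio of Cdkn1a counts at 200 cGy to 0 cGy was 8.05 after protons (95% interval 7.19 to 9.03) and 8.02 after gamma rays (7.20 to 8.97), where the intervals cover counting error only and there was 1 mouse at each end. At 25 cGy the ratio was already 2.98 and 2.31. The edgeR slope common to both types was 1.49 log2 units per 100 cGy (SE 0.16, adjusted p = 1.46e-05), and the separate slopes were 1.39 (SE 0.22, adjusted p = 0.00518) for protons and 1.59 (SE 0.24, adjusted p = 0.00214) for gamma rays. The rank correlation of count with dose was 0.976 in each type, with adjusted p = 0.0550 for protons and 0.0196 for gamma rays by the exact permutation test. Leaving out any 1 of the 20 mice kept the common slope between 1.39 and 1.61. With 1 proton mouse left out, the proton rho was 0.967 to 0.983 and not past the threshold (exact permutation adjusted p from 0.121 to 0.231). Over all 13124 genes this test then called 0 to 7 upward, against 11 with all proton mice. With 1 gamma mouse left out, the gamma rho was likewise 0.967 to 0.983. There Cdkn1a stayed past the threshold each time (exact permutation adjusted p from 0.0296 to 0.0804). Over all genes the gamma test then called 21 to 186 upward. The proton rank call of Cdkn1a therefore rested on all 10 proton mice.

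On the log2 scale the rise of Cdkn1a was less steep at high dose. A straight rise in counts also bends on that scale. At 0, 100 and 200 cGy the counts were 345, 1639 and 2777 in proton mice and 366, 2164 and 2937 in gamma mice. Between 0 and 100 cGy the fitted rise was 1.94 log2 units for protons and 2.83 for gamma rays, and between 100 and 200 cGy it was 0.83 and 0.41. In a fit with a squared dose term that term was -0.86 (SE 0.18, edgeR adjusted p = 0.0377). Negative terms passed the threshold in 1.71% of all genes, and 1 of the 10 members had one. This call was lost without both mice at 75 cGy (adjusted p = 0.101), without the proton mouse at 200 cGy (0.126) and with the GC and length correction (0.133), while the term itself stayed between -0.94 and -0.74. Over all genes the negative terms called fell from 225 to 24, 8 and 14 in these settings.

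Btg2 (ENSMUSG00000020423, chr1:135971747-135975697), an immediate early gene and a p53 target in other cells, was the other member that rose. Its counts in proton mice were 487, 347, 335, 413, 479, 383, 532, 680, 795 and 1582. In gamma mice they were 352, 388, 407, 528, 586, 626, 567, 592, 733 and 772. The gamma counts climbed from the lowest dose and the proton counts stayed at or under that of the unirradiated proton mouse up to 75 cGy, and the proton mouse at 200 cGy was the highest of all by far. Both mice exceeded all 6 low-dose mice at 100 cGy and at every higher dose, the lowest dose for which this held.

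The count ratio of Btg2 at 200 to 0 cGy was 3.25 after protons (2.93 to 3.60) and 2.19 after gamma rays (1.93 to 2.49). The common edgeR slope was 0.72 log2 units per 100 cGy (SE 0.09, adjusted p = 7.40e-05), with 0.91 (SE 0.11, adjusted p = 2.48e-04) for protons and 0.48 (SE 0.12, adjusted p = 0.0351) for gamma rays. Between 0 and 100 cGy the fitted rise was 0.33 for protons and 0.73 for gamma rays, and between 100 and 200 cGy it was 1.56 and 0.48. The squared dose term was 0.26 (edgeR adjusted p = 0.365). The rank correlation was 0.939 in gamma mice (exact permutation adjusted p = 0.0419), and in proton mice it was 0.770 and did not pass the correction (exact permutation p = 0.0126, adjusted p = 0.715).

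Btg2 depended on single mice more than Cdkn1a did. Without the proton mouse at 200 cGy its common slope was 0.54 (adjusted p = 3.68e-04) and its proton slope 0.63 (adjusted p = 0.0413). The gamma slope was not past the threshold without the gamma mouse at 150 cGy (0.47, adjusted p = 0.126) or without that at 200 cGy (0.53, adjusted p = 0.208). In mice given at most 125 cGy, the common slope was 0.51 (edgeR adjusted p = 0.0737), and the separate slopes, 0.51 for protons (adjusted p = 0.874) and 0.52 for gamma rays (adjusted p = 0.522), did not pass. With the GC and length correction the gamma slope was 0.44 and did not pass either (adjusted p = 0.176). Over all genes 13 proton and 29 gamma slopes were called upward in mice given at most 125 cGy, and 103 gamma slopes with the correction. The main fit called 210 and 714.

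**Figure D1:**
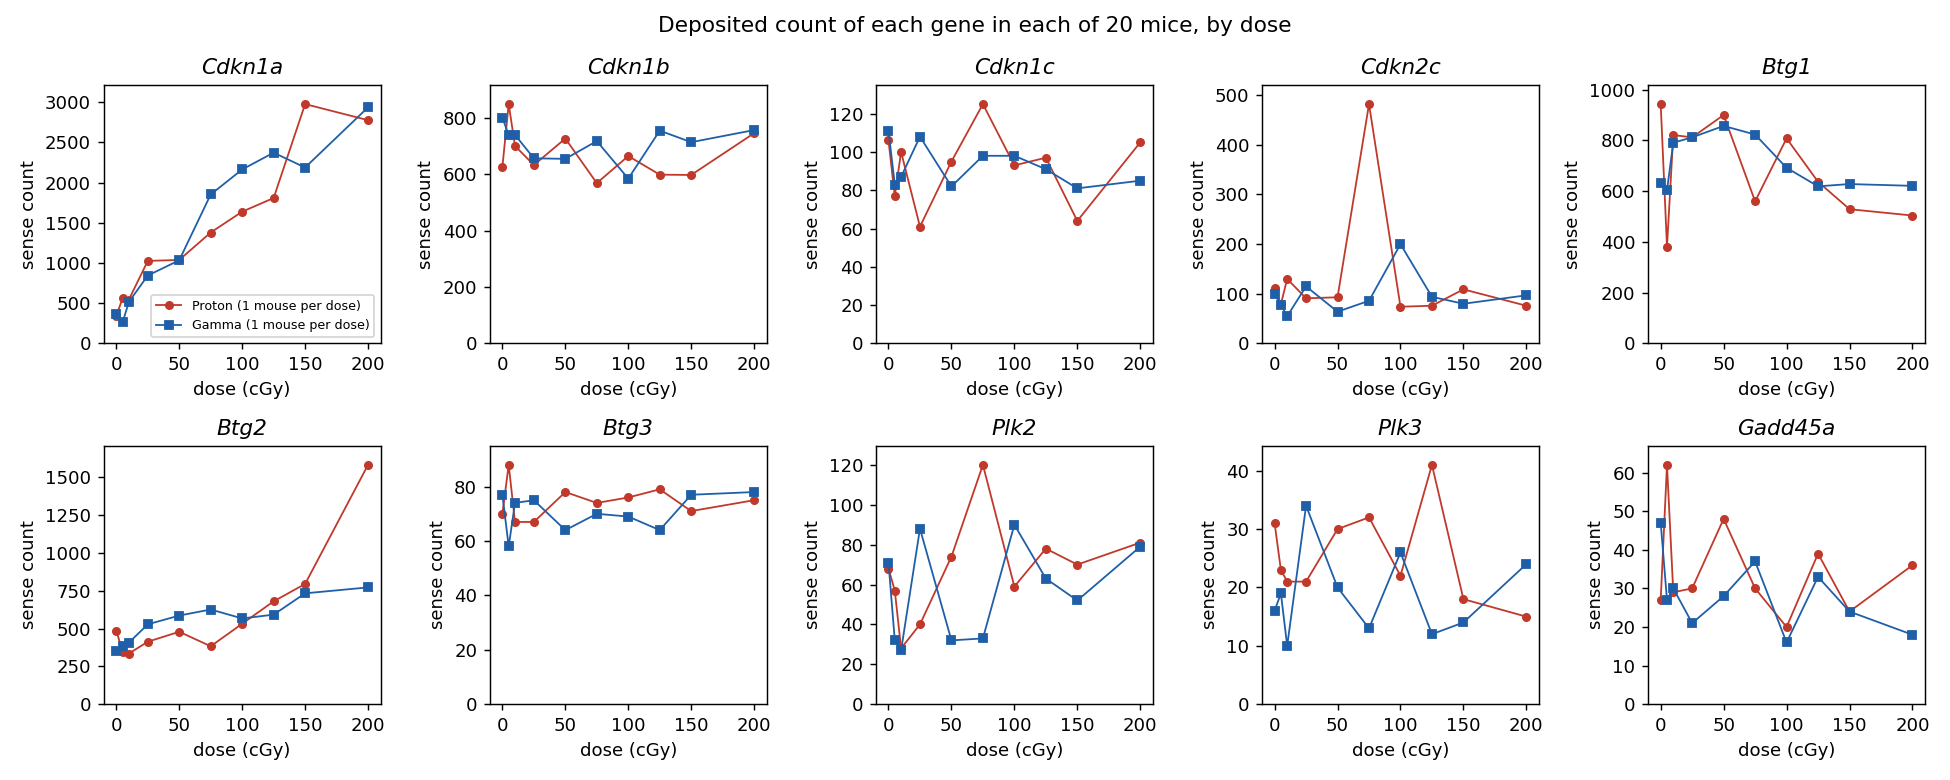
Deposited sense count (vertical axis, from 0) of each of the 10 genes in 20 mice against dose in cGy; red circles are proton mice, blue squares gamma mice, 1 mouse per dose and type, joined by lines. Cdkn1a climbs from 345 and 366 at 0 cGy to 2777 and 2937 at 200 cGy, and Btg2 climbs to 1582 and 772. Cdkn2c has peaks of 482 in the proton mouse at 75 cGy and 200 in the gamma mouse at 100 cGy. No gene but Cdkn1a and Btg2 has a called dose slope.

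**Figure D2:**
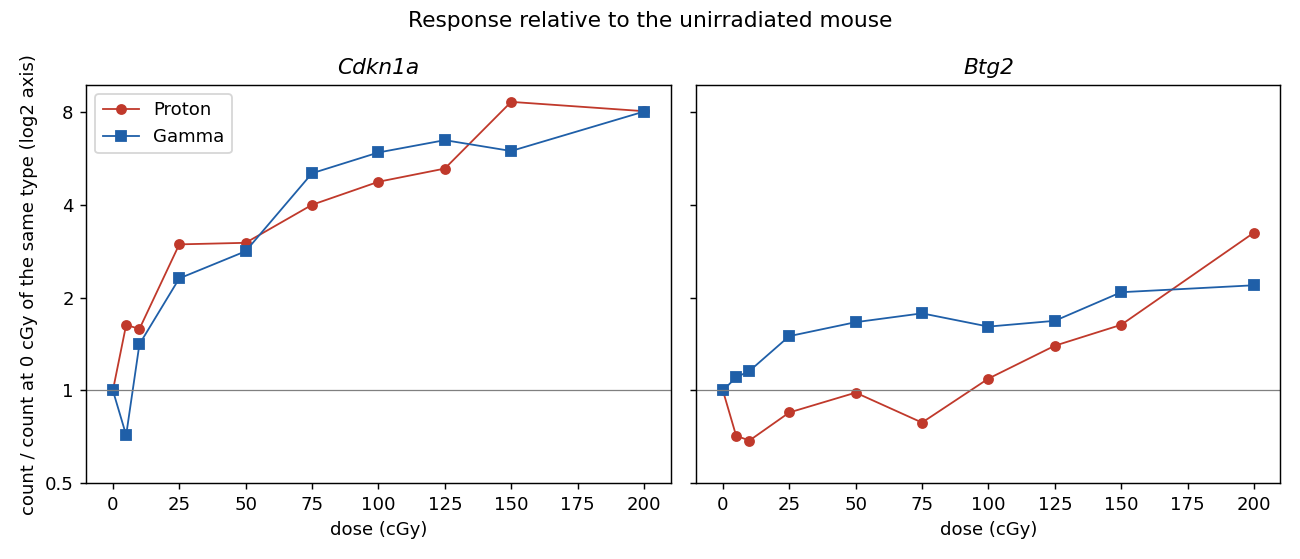
Count of Cdkn1a (left) and Btg2 (right) divided by the count of the unirradiated mouse of the same radiation type, on a log2 axis, against dose in cGy, 1 mouse per point. Both Cdkn1a curves reach about 8 (8.05 and 8.02), while the Btg2 curves reach 3.25 in proton and 2.19 in gamma mice and the proton curve lies under 1 up to 75 cGy.

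Of the 10 members, 2 had a common dose slope upward past the adjusted p threshold of 0.1, Cdkn1a and Btg2, beside 11.9% of all 13124 genes, and none had one downward, beside 5.77%. The same 2 members were called upward in the proton slopes, beside 1.60% of genes, and in the gamma slopes, beside 5.44%. In the rank trend 1 member was called in proton mice, beside 0.0838% of genes, and 2 in gamma mice, beside 1.17%. The median common slope of the 10 members was 7.14e-04 log2 units per 100 cGy and that of all genes tested 0.01.

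**Figure D3:**
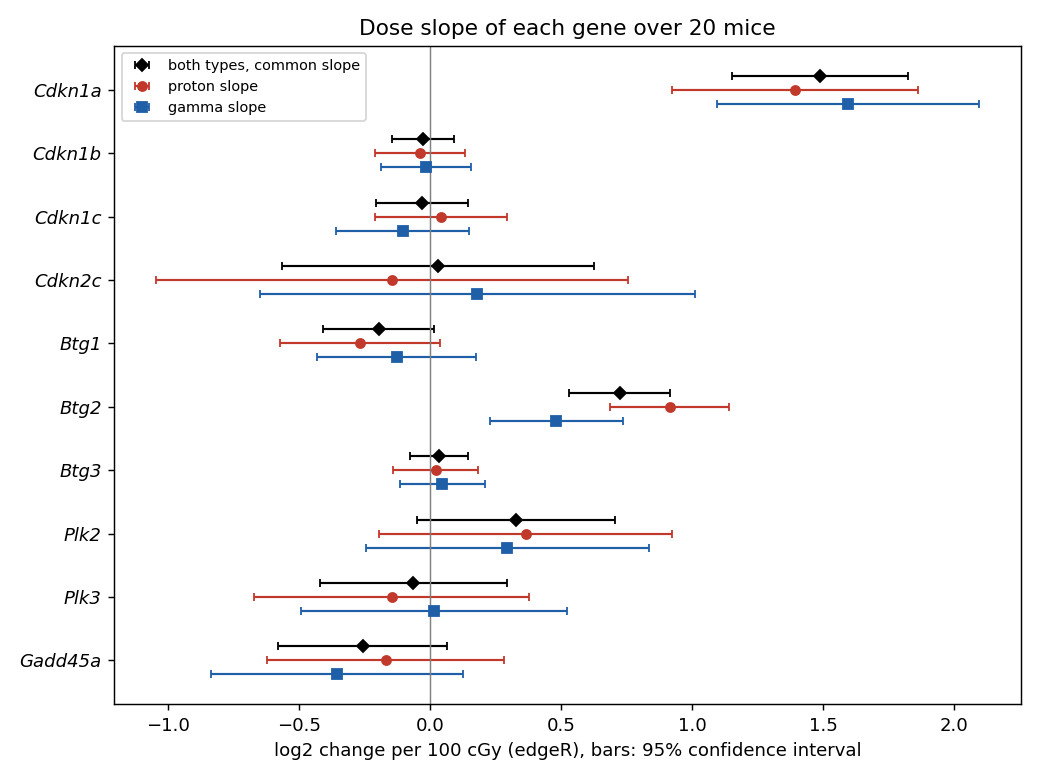
Dose slope of each of the 10 genes in log2 units per 100 cGy from edgeR, with bars for the 95% confidence interval; black diamonds are the slope common to both types, red circles the proton slope and blue squares the gamma slope, over 20 mice. The intervals of Cdkn1a and Btg2 lie above 0 in all 3 fits, and those of the other 8 genes include 0.

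The remaining CDK inhibitors had no called slope. Cdkn1b (chr6:134870419-134875531) lay between 568 and 848 in proton mice (median 648) and between 584 and 800 in gamma mice (median 727.5). These ranges overlap, and its common slope of -0.03 had a 95% confidence interval of -0.15 to 0.09, so a rise as steep as that of Cdkn1a or Btg2 lay outside it. Its squared term was 0.25 (SE 0.08, edgeR adjusted p = 0.111), with low counts in the middle of the dose range: the 6 mice given 25 to 75 cGy had 659 ± 58.1 counts (SD, n = 6) against 742 ± 77.3 (n = 6) at 0 to 10 cGy and 676 ± 75.2 (n = 8) at 100 cGy and above. The spread of the 3 dose bands overlapped.

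Cdkn1c (chr7:150644255-150646955), an imprinted gene, lay between 61 and 125 in proton mice (median 96) and between 81 and 111 in gamma mice (median 89). Its common slope was -0.03 with an interval of -0.21 to 0.14. The highest and lowest counts were both in proton mice, at 75 and 25 cGy, and no dose band stood apart.

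Cdkn2c (chr4:109333481-109339794) followed 2 mice and not the dose. It counted 482 in the proton mouse at 75 cGy and 200 in the gamma mouse at 100 cGy, against 55 to 130 in the other 18 mice. These are the mice with the highest and second highest sums of brown fat markers given above, and also of 6 adipocyte markers, with 19901 and 7919 counts against a median of 3082. Its common slope was 0.03 with an interval of -0.57 to 0.63, the widest of the 10 genes, and without these 2 mice it was -0.06 (SE 0.10, edgeR adjusted p = 0.739).

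Btg1 (chr10:96079635-96085447), the closest relative of Btg2, had 943 counts in the unirradiated proton mouse and 381 in the proton mouse at 5 cGy, the highest and the lowest of the 20 mice. Gamma mice lay between 604 and 857 with a median of 663. Its common slope was -0.20 (SE 0.10, 95% interval -0.41 to 0.01, edgeR adjusted p = 0.238). Without the proton mouse at 5 cGy the slope was -0.27 and passed the threshold (adjusted p = 0.0248), so 1 mouse decided this call. The 8 mice given 100 cGy or more had 630 ± 94.0 counts against 794 ± 120 (n = 6) at 25 to 75 cGy and 696 ± 199 (n = 6) at 0 to 10 cGy.

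Btg3 (chr16:78360105-78377437) was the steadiest gene of the 10. Its counts lay between 58 and 88 in all 20 mice, with a coefficient of variation of 9.25%. The variance over the mean was 0.62, under the value of 1 that counting alone gives on average, and 0.516% of 1163 genes of like level had a lower ratio. The common slope was 0.03 with an interval of -0.08 to 0.14.

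The polo-like kinases and Gadd45a had low counts and wide intervals. Plk2 (chr13:111185252-111191052) had a median of 69 in proton mice (28 to 120) and of 57.5 in gamma mice (27 to 90). Both of its mice at 200 cGy, with 81 and 79 counts, lay above all 6 low-dose mice, which ranged from 27 to 71. The share of all genes with such a separation was not computed. The count ratio at 200 to 0 cGy was 1.19 after protons (95% interval 0.85 to 1.67). After gamma rays it was 1.11 (0.80 to 1.56), both for counting error only. The common slope was 0.33 (SE 0.18, 95% interval -0.05 to 0.70, edgeR adjusted p = 0.280). The endothelium markers Cdh5, Pecam1, Vwf, Tie1, Kdr and Tek were detected in every mouse, had no called slope, and summed to 2232 to 7793 counts. Their sums were 7167 and 6689 at 0 cGy, where Plk2 counted 68 and 71, and 6926 and 7793 at 200 cGy. In the gamma mice at 5, 10, 50 and 75 cGy, where Plk2 counted 27 to 33, they were 2232 to 2614. The proton mice at 5, 10, 25 and 100 cGy had endothelium sums of 2779, 4296, 2759 and 2264 with Plk2 counts of 57, 28, 40 and 59. Other markers were low in the same gamma mice too. Sums of 5 macrophage and 4 red blood cell markers were 413 to 789 and 108 to 489 there, against medians of 1098 and 1808. These sums were as low in the gamma mice at 125 and 150 cGy, where Plk2 counted 63 and 52. Macrophage sums were 610 and 479 in those mice, and red blood cell sums 200 and 110. In the proton mice at 5, 10, 25 and 100 cGy, red blood cell sums were 792, 139, 172 and 486. The part of any of these cell types in the Plk2 counts was not tested. Among the alternatives the Plk2 slope passed the threshold only with 1 surrogate variable as a covariate (0.34, SE 0.11, adjusted p = 0.0436).

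Plk3 (chr4:116801260-116806568) counted 15 to 41 in proton mice (median 22.5) and 10 to 34 in gamma mice (median 17.5), with a common slope of -0.06 and an interval of -0.42 to 0.29. Gadd45a (chr6:66985090-66987451) counted 20 to 62 in proton mice (median 30) and 16 to 47 in gamma mice (median 27.5), with a common slope of -0.26, an interval of -0.58 to 0.06 and edgeR adjusted p = 0.330. Low-dose and high-dose mice overlapped for both genes. The upper bounds of the common slopes, 0.70 for Plk2, 0.29 for Plk3 and 0.06 for Gadd45a, lay under the Cdkn1a slope of 1.49.

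Per kilobase of exon, the unirradiated mice held like levels of 4 members: 160 counts per kilobase of Cdkn1a, 157 of Btg1, 157 of Cdkn1b and 153 of Btg2, each the mean of 2 mice. With 1 unirradiated mouse per type no order among these 4 can be given. The others followed at 56.2 for Cdkn1c, 51.1 for Btg3, 39.3 for Cdkn2c, 24.8 for Plk2, 21.0 for Gadd45a and 9.28 for Plk3. At 200 cGy the means per kilobase were 1285 for Cdkn1a, 429 for Btg2, 165 for Cdkn1b and 112 for Btg1, so Cdkn1a and Btg2 had left the level that they shared with Btg1 and Cdkn1b, while the other 6 ranged from 7.70 to 53.2.

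No member differed between protons and gamma rays past the threshold. In the test of the slope difference 0 of the 10 members and 0.00% of all genes passed (edgeR), 254 genes had an unadjusted p under 0.05, and DESeq2 called 0 genes. For Cdkn1a the proton slope minus the gamma slope was -0.20 (95% interval -0.92 to 0.51, adjusted p = 0.99997). For Btg2 it was 0.43 (0.08 to 0.78, unadjusted p = 0.0180, adjusted p = 0.99997), and without the proton mouse at 200 cGy it was 0.15. Btg2 was the 1 member with an unadjusted p under 0.05.

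With proton and gamma mice compared within doses, 0 members and 0.00% of genes passed in edgeR, 1032 genes had an unadjusted p under 0.05, and DESeq2 called 70 genes, none of them a member. The proton minus gamma difference was 0.03 log2 units for Cdkn1a (95% interval -0.26 to 0.32) and -0.02 for Btg2 (-0.34 to 0.30). The widest interval of the 10 members was that of Cdkn2c, from -0.46 to 0.92, so for this gene differences within that range were not excluded. Intervals differed by gene, and that of Cdkn1b was -0.25 to 0.04.

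The 2 mice of each dose, 1 from each radiation type, were compared to ask which members deviate together at a fixed dose. Over the 10 doses, the proton minus gamma difference in log2(count + 1) was correlated between members, with exact two-sided permutation tests adjusted over the 45 pairs. Relations were called by Pearson's r, and by r none of the pairs passed. By rho 1 pair did, Cdkn1b with Gadd45a (Pearson r = 0.769, exact permutation p = 0.0100, adjusted p = 0.422; Spearman rho = 0.867, p = 0.00217, adjusted p = 0.0978; r without the 2 farthest doses 0.618), and its rho was no longer past the threshold without the pair at 75 cGy (exact permutation adjusted p = 0.485). Cdkn1a and Btg2, the members that rose, were not correlated in this way past the threshold.

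The same differences were set against the mean of 13 immediate early genes, which are induced within minutes by handling, growth factors and stress, and of 6 brown fat markers, 20 relations in all. Btg2 varied with the immediate early list (r = 0.816, exact permutation p = 0.00307, adjusted p = 0.0307; rho = 0.891, p = 0.00115, adjusted p = 0.0230), and r was 0.863 without the 2 farthest doses. The summed immediate early counts had a median of 3100 and were highest in the proton mouse at 200 cGy (5423), where Btg2 was highest too, and next in the gamma mouse at 25 cGy (5319), where Btg2 counted 528. Without the pair at 75 cGy the relation was 0.781 (exact permutation p = 0.0126, adjusted p = 0.126) and did not pass by r, while rho was 0.867 (adjusted p = 0.0902). None of the 13 immediate early genes had a called common slope (edgeR, 0 genes with an unadjusted p under 0.05, and 0 called by DESeq2), and the part of these genes in the Btg2 result was not tested.

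Cdkn2c varied with the brown fat list (r = 0.912, exact permutation p = 8.01e-04, adjusted p = 0.0160; rho = 0.855, p = 0.00286, adjusted p = 0.0286). Leaving out the 2 farthest doses, 75 and 100 cGy, gave r = 0.710. Cdkn2c was not set against the adipocyte list, which was highest in the same 2 mice, and the part of either kind of fat in its counts was not tested. Neither Cdkn1a (r = 0.017) nor Btg2 (r = -0.440) passed against the brown fat list, and their common slopes without the 2 mice were 1.45 and 0.72.

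**Figure D4:**
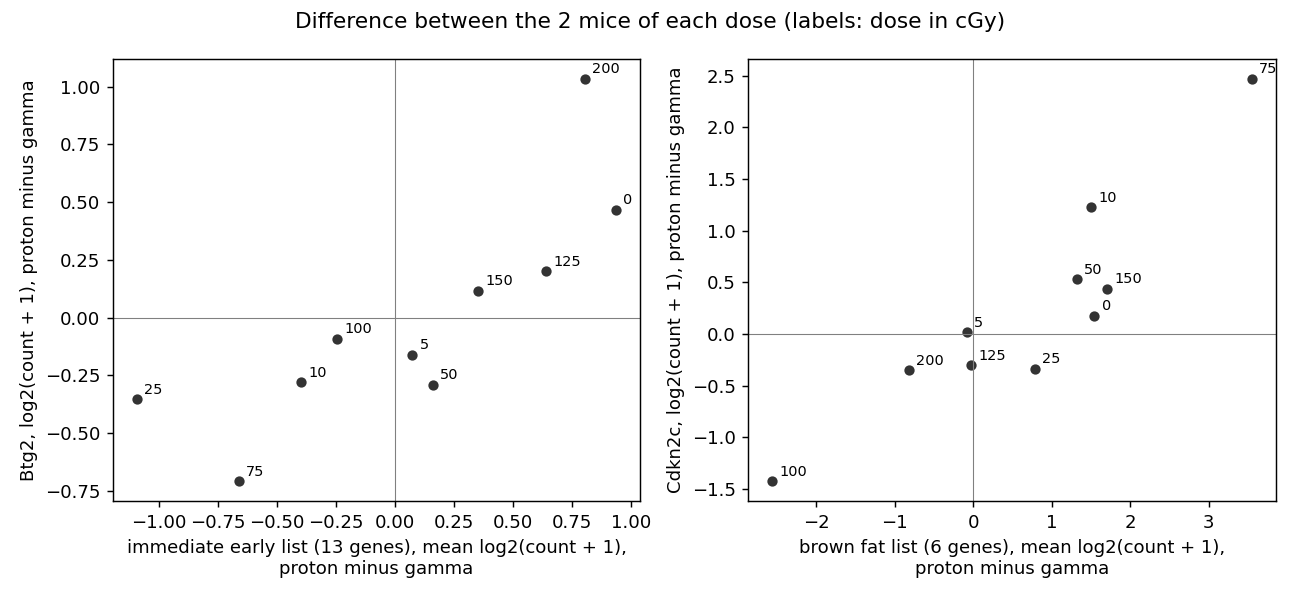
Proton minus gamma difference in log2(count + 1) for the 2 mice of each dose, labelled in cGy: Btg2 against the mean of 13 immediate early genes (left) and Cdkn2c against the mean of 6 brown fat markers (right). The points rise together in both panels (r = 0.816 and 0.912), and on the right the pairs at 75 and 100 cGy lie farthest out.

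The nearest relatives of the members outside the list were followed to see whether whole families moved. Of 11 relatives 8 were tested, and 1 rose, a share near the 11.9% of all genes called upward. Tob2, a BTG/TOB family protein, had a common slope of 0.39 (SE 0.13, adjusted p = 0.0533) and counts of 352 to 1071. None of the relatives passed among mice given at most 125 cGy, without the proton mouse at 150 cGy or without the gamma mouse at 0 cGy. Over all genes 58, 1241 and 1454 were called upward in these settings, against 1567 with all mice. Tob1, of the same family as Tob2, had 0.23 (SE 0.15, adjusted p = 0.387).

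The INK4 relatives had -0.31 (SE 0.21) for Cdkn2b and 0.02 (SE 0.13) for Cdkn2d, the kinases that drive mitosis and centriole duplication -0.13 (SE 0.23) for Plk1 and -0.05 (SE 0.08) for Plk4, and the stress genes 0.19 (SE 0.15) for Gadd45b and 0.22 (SE 0.10) for Gadd45g. None of these 6 passed the threshold. The median slope of the 8 relatives was 0.11, beside 0.01 for all genes.

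Among 21 tested cyclins, CDKs and pocket proteins, 3 rose and 1 fell, with a median slope of 0.03. These shares lay near those of all genes, 11.9% upward and 5.77% downward. Wee1, the kinase that holds Cdk1 inactive, had the largest of these slopes (0.45, SE 0.08, adjusted p = 7.93e-04), followed by the pocket proteins Rb1 (0.21, SE 0.06, adjusted p = 0.0373) and Rbl2 (0.16, SE 0.04, adjusted p = 0.0174). E2f4, which pairs with pocket proteins in resting cells, fell by 0.13 log2 units per 100 cGy (SE 0.04, adjusted p = 0.0324). With the GC and length correction 1 of the 21 passed, and none passed among mice given at most 125 cGy. Calls were lost over all genes too. The main fit called 1567 upward and 757 downward, the correction 376 and 180, and mice given at most 125 cGy 58 and 24. None of the 17 tested proliferation genes passed in either direction (edgeR, 0 with an unadjusted p under 0.05, and 0 called by DESeq2), and their sum was 1072 to 1446 counts over 20 genes in every mouse.

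Other p53-regulated genes were set beside the members. Of 12, 10 rose and none fell, beside 11.9% and 5.77% of all genes, with a median slope of 0.58. Several of the 12, among them Aen, Mdm2 and Ccng1, were reported by the authors as dose-responsive in these same mice. The list is therefore not an independent scale of the response. The smallest p-values were those of Aen, a p53-induced nuclease (0.98, SE 0.06, adjusted p = 6.59e-09), Mdm2, which degrades p53 (0.41, SE 0.03, adjusted p = 1.13e-07), and cyclin G1 (Ccng1, 0.89, SE 0.07, adjusted p = 1.13e-07). The 2 that did not pass, named after their values were seen, were Bbc3 (0.32, adjusted p = 0.144) and Fas (0.01, adjusted p = 0.952). Cdkn1a at 1.49 was exceeded in this list by Eda2r at 1.65, also named after its value was seen. The other p53 targets among the members had slopes of 0.72 for Btg2, 0.33 for Plk2, -0.06 for Plk3 and -0.26 for Gadd45a, of which Btg2 alone passed. Of 7 glucocorticoid-induced genes, which follow stress hormone levels, 3 rose, beside 11.9% of all genes. They were Sgk1 (0.48, SE 0.10), Zbtb16 (0.92, SE 0.27) and Per1 (0.56, SE 0.18). Of the 7, 0 were called in the proton slopes and 3 in the gamma slopes, beside 1.60% and 5.44% of all genes called upward. The part of stress hormones was not tested.

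**Figure D5:**
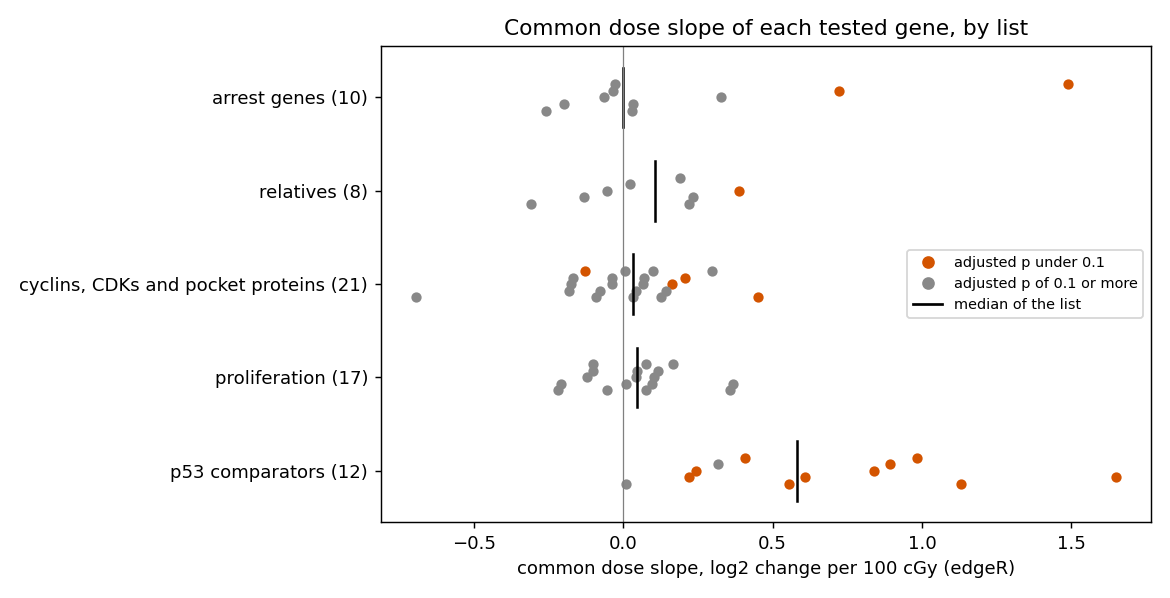
Common dose slope (edgeR, log2 units per 100 cGy) of each tested gene, by list, with the number of genes in parentheses; orange points passed an adjusted p of 0.1, grey points did not, and black lines are medians. The p53 comparators have a median of 0.58, while the arrest genes, their relatives, the cyclin group and the proliferation genes centre near 0 and Cdkn1a and Btg2 stand to the right.

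The genes whose counts were most like those of Cdkn1a over the 20 mice, by Pearson r of log2(count + 1) among genes averaging 50 counts or more, were Aen (0.972), Eda2r (0.968), Bax (0.964), Ephx1 (0.958) and Slc19a2 (0.956). The genes most like Btg2 were Mdm2 (0.865), Apaf1 (0.864), Synj1 (0.863), Slc30a4 (0.862) and Igf2r (0.851). All these mice share the dose series, so the values describe likeness to it as much as to the gene. Btg2 was 63rd in likeness to Cdkn1a (r = 0.752), and of the other members averaging 50 counts or more, Plk2 was next at 0.406.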

How the data were processed

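RNA-seq libraries of polyA RNA from 20 aortas were made by the authors with a stranded protocol, and paired reads of 100 bases were aligned to mm9 with STAR 2.5.2a and resampled to a common depth with PORT. The deposited unit is the read count per gene on the sense strand. All 21078 gene IDs were found in GENCODE M1 (NCBIM37), whose coordinates are given.

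Counts were fitted in edgeR 4.0.16 (R 4.3.3, TMM, robust quasi-likelihood test) over the 13124 genes averaging 5 counts or more. The models had an intercept for each radiation type with a common dose slope, a separate slope for each type, or a squared dose term, or dose as a block. Doses were also tested by exact two-sided permutation of the rank correlation within each type. P-values were adjusted by Benjamini-Hochberg over all genes tested, with a threshold of 0.1. With 1 mouse per dose and type, the slope and squared-term tests set their estimates against the scatter of mice around the fitted line or curve. With dose as a block, the proton minus gamma difference is set against its scatter across doses. The permutation test uses the order of the counts alone.

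The 10 genes, the lists and the tests were chosen with earlier results of these data known. Named genes are the members, every tested relative, the genes of the family and pathway lists past the common slope threshold (the 3 smallest p in each direction where over 5 passed) and the 5 genes most like Cdkn1a and Btg2. Genes of cell type marker lists are given as lists. Alternatives were DESeq2 1.42.0, library sizes without TMM, other count filters, 1 surrogate variable (sva 3.50.0), a GC and length correction, other dose scales and ranges, other trend statistics and leaving out mice. Leaving out the proton mouse at 75 cGy together with the gamma mouse at 100 cGy was chosen after seeing the data. A share of 3 counts (4.95e-05% of a library) is the smallest the depth can show, for counting error only.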

Additional observations from a re-analysis of the deposited data

Results flagged for a closer look

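In each radiation type, the 10 mice were examined for a mouse whose count of a member lay far from the others relative to the range, 20 groups in all. Chance flags about 1 in 20 groups, and the doses within a group differ, so a gene that follows the dose can be flagged at its top dose. The Cdkn2c count of the proton mouse at 75 cGy was 482, with a gap of 0.863 of the range to the next mouse, where 0.466 is the critical value. The Cdkn2c count of the gamma mouse at 100 cGy was 200, with a gap of 0.586 of the range. The Btg2 count of the proton mouse at 200 cGy was 1582, with a gap of 0.631 of the range.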

How the results depend on the processing

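Cdkn1a and Btg2 were called upward in the common slope under every alternative tried. Counts of members called that left their main value, other than with 1 mouse left out, were as follows. For the common slope, 3 members were called, not 2, with 1 surrogate variable, where Plk2 joined. Over all genes that setting called 1951 upward, against 1567 in the main fit. For the proton slope, 1 member was called, not 2, with 0 to 125 cGy and with log2(dose + 1). For the gamma slope 1 was called with the GC and length correction, 0 to 125 cGy, dose as a rank and log2(dose + 1). Btg2 was the call lost each time, with proton slopes of 0.51 and 0.18 and gamma slopes of 0.44, 0.52, 0.12 and 0.15. Over all genes the upward proton calls fell from 210 to 13 and 22. The upward gamma calls fell from 714 to 103, 29, 335 and 38, in the same order of settings. For the squared term 0 were called without both mice at 75 cGy or with the GC and length correction, and 2 with 1 surrogate variable or DESeq2, where Cdkn1b joined Cdkn1a. For the rank trends 0 were called in both types with steps between doses, 0 to 125 cGy and the maximum over genes in 100 permutations. Of all 13124 genes, steps called 1 in proton and 0 in gamma mice, and 0 to 125 cGy called 0 in both. The maximum over genes called 2 upward in proton mice, and 3 upward and 3 downward in gamma mice. No member was among these calls. By permutation of the maximum over genes, the adjusted p of Cdkn1a was 0.109 in proton and 0.178 in gamma mice. That of Btg2 was 0.842 in gamma mice. The fitted-line trend used 100000 random dose orders in place of all orders. For the lists, whose alternatives were added after seeing the data, relatives had 2 calls without both mice at 75 cGy or without the proton mouse at 75 and the gamma mouse at 100 cGy, and 0 with 0 to 125 cGy or log2(dose + 1). The cyclin group had 1 with the GC and length correction and 0 with those dose settings, as had the glucocorticoid-induced genes. Over all genes the common slope called 376 upward and 180 downward with the correction. It called 58 and 24 with 0 to 125 cGy, and 86 and 15 with log2(dose + 1), against 1567 and 757 in the main fit.

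With 1 mouse left out, members called ranged from 2 to 3 for the common and the proton slope, 1 to 2 for the gamma slope and rank trend, and 0 to 2 for the squared term, and were 0 throughout for the proton rank trend. In that last test 0 to 7 of all genes were called upward with 1 proton mouse left out. Relatives had 0 calls without the proton mouse at 150 or the gamma mouse at 0 cGy and 2 without the proton mouse at 75 or 125 cGy. The cyclin group ranged from 2 calls without the proton mouse at 200 cGy to 6 without that at 75 cGy, and the glucocorticoid-induced genes from 1 without the proton mouse at 150 cGy to 5 without that at 5 cGy. Immediate early genes had 1 call, downward, without the proton mouse at 200 cGy and otherwise 0. The list relations fell from 2 to 1 without the pair at 75 cGy.

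Signs turned for values that were not past the threshold with all mice. With mice left out, common slopes ranged from -0.0774 to 1.0e-04 for Cdkn1b, -0.0949 to 0.0091 for Cdkn1c, -0.0398 to 0.18 for Cdkn2c and -0.18 to 0.0433 for Plk3. The slope difference of Cdkn1a ranged from -0.56 to 0.0364, the matched-dose difference from -0.0859 to 0.0821 for Cdkn1a and -0.14 to 0.0577 for Btg2, and the squared term of Btg2 from -0.0697 without the proton mouse at 200 cGy to 0.47 without the gamma mouse at 200 cGy, where it passed the threshold (adjusted p = 0.0943). With the GC and length correction the common slopes were 0.0868 for Cdkn1c, -0.015 for Btg3 and 0.0485 for Plk3, and the matched-dose difference of Cdkn1a was -0.0323. With 0 to 125 cGy these 4 values were 0.0409, -0.0358, 0.16 and -0.0187, and the Btg2 slope difference was -0.0064. The common slope of Cdkn2c and the matched-dose difference of Btg2 were -0.0114 and 0.0576 without both mice at 75 cGy, -0.023 and 0.0542 with 1 surrogate variable, and -0.0586 and 0.0769 without the proton mouse at 75 and the gamma mouse at 100 cGy. The causes of these changes were not tested. Proton and gamma mice were paired by dose alone, since the labels give no replicate numbers that they share. Depth limits Plk3 and Gadd45a most, with mean counts of 22.1 and 31.3.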

Other observations

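Genes most like Cdkn2c and Plk2 over the 20 mice were looked up after their counts had been seen. Among those most like Cdkn2c were Pla2g16 (r = 0.977), Dld (0.970), Mtch2 (0.970) and Gpx3 (0.969), which include lipid and mitochondrial enzymes, and none of them had a called dose slope. Those most like Plk2 were Plek (0.852), Slfn5 (0.847), Fam111a (0.843), Rapgef3 (0.839) and Snx2 (0.839).

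Over all 20 mice the ratio of variance to mean placed Cdkn2c (73.5) at percentile 97.9 among 1494 genes of like level, Plk2 (9.91) at 85.1 among 1047 and Btg1 (31.9) at 84.0 among 894. Cdkn1b (8.36), Cdkn1c (2.61), Plk3 (3.04) and Gadd45a (4.03) lay between percentiles 47.1 and 68.6. The variance of Btg1 came with no called slope.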
